A study of Mus musculus with 40 samples.

Results

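Por and Abhd2 are 2 of the 29 genes that the study followed by PCR primers for expression or binding, among the 21951 protein-coding genes of the mouse annotation used here. They were picked for description because their counts of sites shared by SMRT, NCoR and HDAC3 were high among those 29 genes in the peak lists described below, so the counts themselves are a description and carry no test. Every site was taken whose centre lay inside either gene or within 50 kb of it, which gave 20 sites at Por and 12 at Abhd2 out of 35999 in the genome. Chromatin immunoprecipitation followed by sequencing (ChIP-seq), which maps where a protein sits on DNA, was used on mouse liver in 40 samples and 18 groups. The lists came from 3 groups (SMRT, NCoR and HDAC3), each with 3 replicates from male C57BL/6 mice fed ad libitum, with the genotype Bcl6 fl/fl and labelled wild type, the floxed alleles being undeleted controls. The other 31 samples were not analysed here, and no group without Bcl6 and no fasted group was compared. Each list pooled its replicates into a single set of intervals with no height, score or replicate value, so no error over animals could be given for any site.

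SMRT and NCoR are related corepressor proteins. Both carry the histone deacetylase HDAC3 to transcription factors on DNA, among them nuclear receptors and the repressor BCL6, where removal of acetyl groups from histones accompanies lower transcription. Por encodes cytochrome P450 oxidoreductase, the flavoprotein of the endoplasmic reticulum that passes electrons from NADPH to microsomal P450 enzymes, and so serves drug, sterol and fatty acid hydroxylation in liver. Abhd2 encodes a serine hydrolase of the alpha/beta hydrolase domain family that acts on lipids.

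Peaks of any cofactor were joined into a site where neighbouring centres lay no more than 200 bp from each other, and the site was placed at the NCoR centre where NCoR was present. A site with all 3 cofactors was called shared. Sites were numbered along each gene from 5′ to 3′. Both genes lie on the plus strand, Por (ENSMUSG00000005514.14) at chr5:135670033-135735326 and Abhd2 (ENSMUSG00000039202.12) at chr7:79273199-79365508 of GRCm38, the assembly named mm10 in the study. Distances were counted from the start site of the longest transcript of the basic set, Por-201 at position 135689036 for Por and the gene start, position 79273199, for Abhd2, with negative values upstream.

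The windows below are 200 bp around site centres, read on the plus strand of GRCm38. At Por they show the promoter site (site 10), the site nearest downstream of the promoter (site 11), the shared site with an exact BCL6/STAT match (site 8) and the site whose cofactor centres lay farthest apart (site 16). Capitals mark exact matches to BCL6/STAT (TTCCNAGAA, TTCCNGGAA, TTCTNAGAA or TTCTNGGAA) and matches to DR1, the repeat bound by PPAR and HNF4 receptors, with up to 1 mismatch. Sites 10 and 11 held neither.

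Por site 8, chr5:135678637-135678836: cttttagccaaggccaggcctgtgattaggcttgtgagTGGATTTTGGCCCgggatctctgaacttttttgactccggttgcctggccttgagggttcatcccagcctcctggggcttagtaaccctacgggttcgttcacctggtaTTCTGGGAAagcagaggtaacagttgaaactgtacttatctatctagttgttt
Por site 10, chr5:135688619-135688818: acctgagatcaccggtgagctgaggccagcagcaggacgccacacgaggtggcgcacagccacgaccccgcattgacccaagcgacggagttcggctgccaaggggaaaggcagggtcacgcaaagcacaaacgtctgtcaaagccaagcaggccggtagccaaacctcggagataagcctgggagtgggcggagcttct
Por site 11, chr5:135690566-135690765: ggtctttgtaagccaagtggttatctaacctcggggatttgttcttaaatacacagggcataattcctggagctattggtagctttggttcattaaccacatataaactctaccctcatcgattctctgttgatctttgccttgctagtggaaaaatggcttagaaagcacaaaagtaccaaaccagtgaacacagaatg
Por site 16, chr5:135726677-135726876: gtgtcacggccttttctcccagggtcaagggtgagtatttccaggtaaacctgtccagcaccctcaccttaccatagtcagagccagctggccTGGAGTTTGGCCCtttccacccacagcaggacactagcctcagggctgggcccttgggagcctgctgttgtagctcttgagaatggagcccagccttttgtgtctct

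At Abhd2 the windows show the shared and SMRT-only pair just inside intron 1 (sites 5 and 6) and the members of the intron 3 cluster that held exact BCL6/STAT matches (sites 8 and 10). Site 8 held both kinds of match, sites 6 and 10 held BCL6/STAT alone, and site 5 held neither.

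Abhd2 site 5, chr7:79273748-79273947: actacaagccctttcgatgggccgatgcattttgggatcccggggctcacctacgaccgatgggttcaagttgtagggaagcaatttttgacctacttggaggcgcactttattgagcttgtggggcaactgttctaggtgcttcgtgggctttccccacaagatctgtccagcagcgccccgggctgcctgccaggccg
Abhd2 site 6, chr7:79274309-79274508: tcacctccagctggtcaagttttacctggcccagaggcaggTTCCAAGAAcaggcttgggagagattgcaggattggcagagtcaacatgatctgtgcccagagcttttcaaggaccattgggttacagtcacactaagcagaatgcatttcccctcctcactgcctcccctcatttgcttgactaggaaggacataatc
Abhd2 site 8, chr7:79310315-79310514: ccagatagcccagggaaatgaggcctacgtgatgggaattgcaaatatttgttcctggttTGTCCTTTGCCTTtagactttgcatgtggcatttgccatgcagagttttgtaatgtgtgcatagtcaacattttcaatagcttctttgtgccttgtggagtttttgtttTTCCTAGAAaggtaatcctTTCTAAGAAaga
Abhd2 site 10, chr7:79313924-79314123: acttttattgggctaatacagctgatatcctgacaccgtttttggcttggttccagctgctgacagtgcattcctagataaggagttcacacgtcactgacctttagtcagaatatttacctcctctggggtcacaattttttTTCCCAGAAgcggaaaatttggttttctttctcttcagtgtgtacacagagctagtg

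At Por, 9 of the 20 sites were shared, 1 was bound by NCoR and HDAC3, and 10 were NCoR-only. Over all 35999 sites of the genome, 24.3% were shared, 14.4% held NCoR and HDAC3, and 54.8% were NCoR-only. No Por site held SMRT with NCoR alone, SMRT with HDAC3 alone, SMRT alone or HDAC3 alone, classes that made up 4.04%, 0.217%, 0.992% and 1.18% of all sites. Every SMRT peak in the window (9) and every HDAC3 peak (10) therefore lay at an NCoR peak, while 10 of the 20 NCoR peaks had neither partner. Since both genes were picked on shared sites, nothing is read from the difference between these shares.

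**Figure D1:**
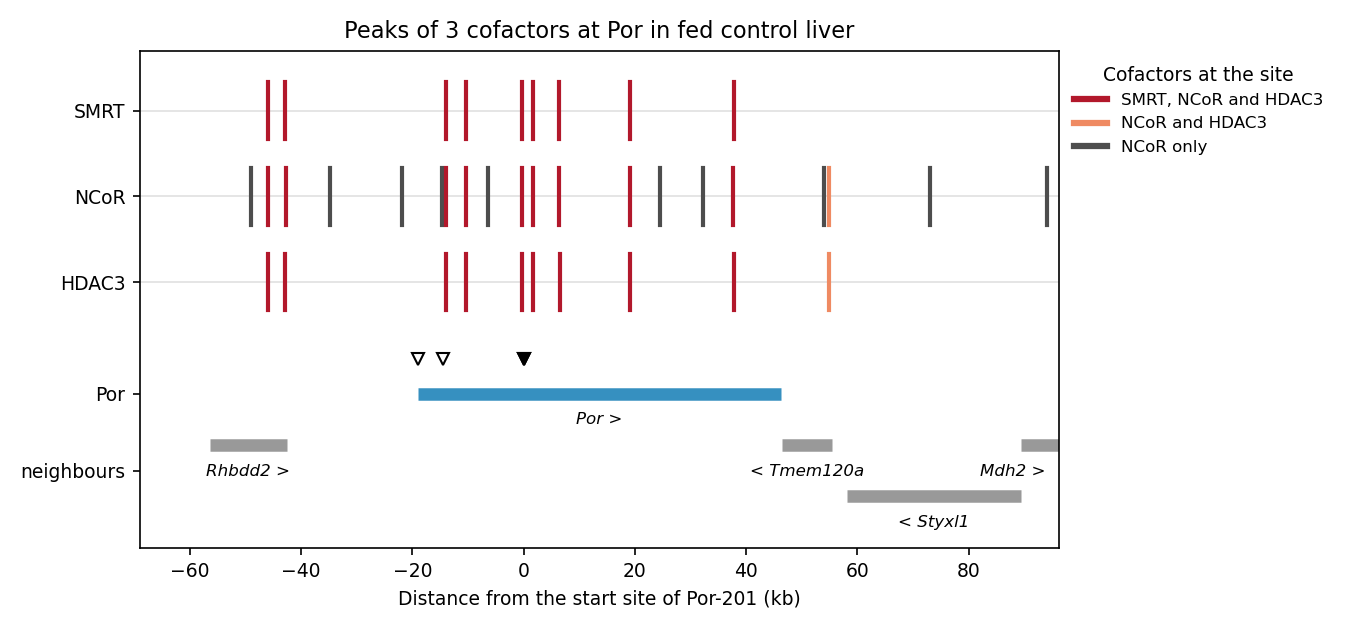
Peaks of SMRT, NCoR and HDAC3 along Por and 50 kb on either side, plotted as ticks by distance in kb from the start site of Por-201 and coloured by the cofactors at the site. The filled triangle marks start sites of the basic set and open triangles those of Por-208 and Por-209, and 7 of the 9 shared sites lie inside the gene while none lies downstream of it.

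The Por sites fell in 3 stretches. Furthest upstream, shared sites 2 and 3 lay at -45.9 and -42.8 kb inside Rhbdd2, a gene of the rhomboid domain family, together with NCoR-only site 1. NCoR-only sites 4 and 5 followed inside the long noncoding RNA gene Gm43091, whose span overlaps the 5′ end of Por.

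The gene itself held 11 sites, 7 of them shared and 4 NCoR-only. Between the start of the gene record and Por-201 lay NCoR-only site 6 at -14.6 kb, shared site 7 at -14.0 kb, shared site 8 at -10.3 kb and NCoR-only site 9 at -6.37 kb. These positions lie inside the gene record only because it includes transcripts outside the basic set, Por-208, Por-207 and Por-209, which start 19, 14.5 and 14.5 kb upstream. Site 6 lay at -136 bp from the start of Por-207, and site 7 lay 427 bp inside Por-209. Site 10, at -318 bp from Por-201, was the single promoter site, a promoter being the stretch from 1000 bp before to 100 bp after a start site of the basic set. By comparison, 10.6% of all sites and 5.8% of shared sites in the genome lay in promoters.

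Downstream of the Por-201 start, shared sites 11, 12 and 13 (1.63, 6.44 and 19.1 kb) and NCoR-only site 14 (24.6 kb) lay in intron 1. This intron is 26.6 kb long and makes up 57.5% of the transcript. Intron 2, of 12.6 kb, held NCoR-only site 15 and shared site 16, at 32.2 and 37.7 kb. Introns 3 to 15, each under 1 kb, held no site. Counted from the Por-201 start alone, without flanks, the gene held 4 shared sites and 2 NCoR-only sites.

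Beyond the 3′ end of Por no shared site was found. NCoR-only site 17 and NCoR and HDAC3 site 18 lay inside Tmem120a, which encodes a membrane protein and ends 159 bp from the end of Por on the opposite strand. Site 18 was 432 bp inside Tmem120a from its start. NCoR-only sites 19 and 20 lay in Styxl1 and in Mdh2, the gene of mitochondrial malate dehydrogenase.

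At Abhd2, 6 of the 12 sites were shared, 2 were bound by NCoR and HDAC3, 3 were NCoR-only and 1 was SMRT-only, against the genome shares given above. All 8 HDAC3 peaks and 6 of the 7 SMRT peaks lay at an NCoR peak, and 8 of the 11 NCoR peaks had HDAC3. The gene itself held 7 sites, of which 4 were shared, and the 50 kb upstream held 4, of which 2 were shared. The 50 kb downstream held NCoR-only site 12 inside Rlbp1, a retinaldehyde-binding protein gene on the opposite strand.

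**Figure D2:**
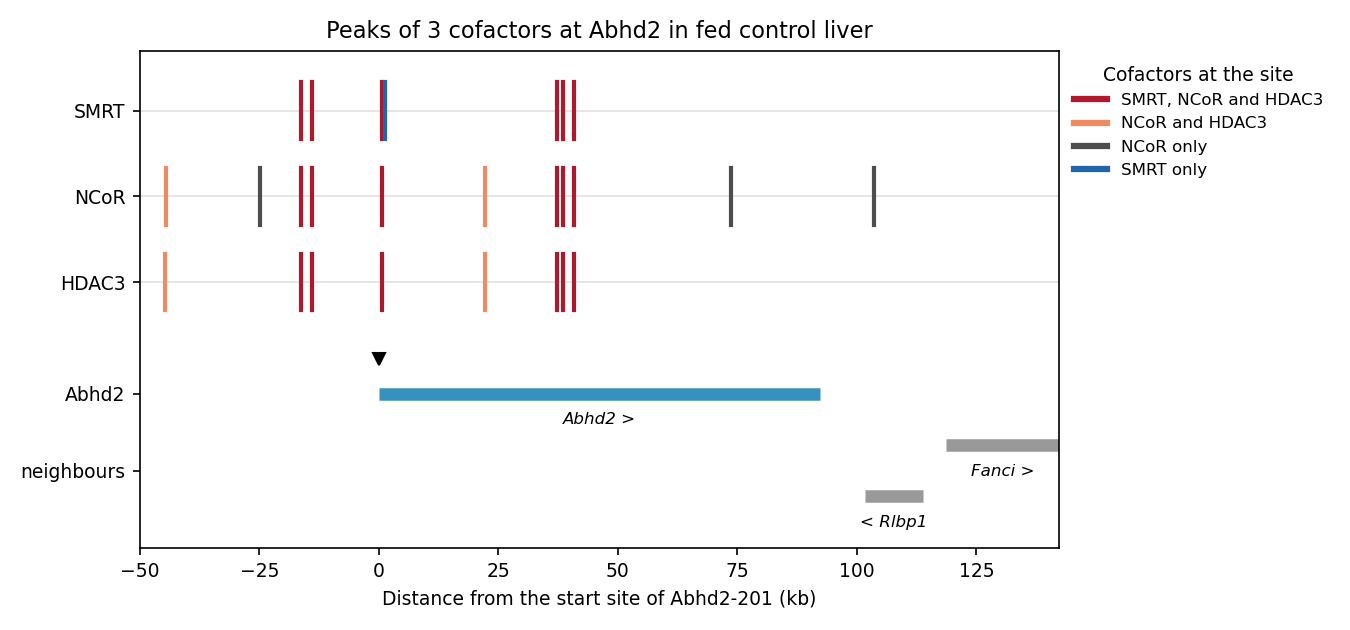
Peaks of the 3 cofactors along Abhd2 and 50 kb on either side, plotted by distance in kb from the start site of the longest Abhd2 transcript and coloured by the cofactors at the site. The 6 shared sites lie in groups of 2, 1 and 3, the last of them in intron 3, and the SMRT-only site stands 561 bp from the shared site in intron 1.

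Upstream of Abhd2, NCoR and HDAC3 site 1 lay at -44.6 kb, NCoR-only site 2 at -24.9 kb, and shared sites 3 and 4 at -16.3 and -13.9 kb. None of the 12 sites lay in a promoter: the nearest to the start site was shared site 5, which lay 648 bp downstream in intron 1. SMRT-only site 6 followed 561 bp further on, beyond the 200 bp within which peaks were joined. Only 357 sites in the genome were SMRT-only.

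NCoR and HDAC3 site 7 lay in intron 2 at 22.2 kb. Intron 3, of 26.3 kb, held the cluster of shared sites 8, 9 and 10 at 37.2, 38.6 and 40.8 kb, with 1345 and 2264 bp between neighbours. In the genome, runs of 3 shared sites within 5 kb took in 149 of the 8764 shared sites (1.7%), and none of those at Por. Shared sites 10, 11 and 12 of Por, 1947 and 4809 bp apart, fell outside that limit. The limit of 5 kb was not among the planned descriptions, and no other limit was tried. For that reason, and since Abhd2 was picked on its shared sites, nothing is read from this share. Intron 5, of 22.7 kb, held NCoR-only site 11, and introns 4 and 6 to 10 held none.

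Per unit of length, Por held 1.68 sites per 10 kb within the gene, of which 1.07 were shared, while Abhd2 held 0.758 and 0.433. The genome as a whole, with its stretches outside genes, held 0.136 sites and 0.0331 shared sites per 10 kb of known bases. Both genes were picked on shared sites, so nothing is read from the difference. Upstream of both genes the shared density was 0.4 per 10 kb, and downstream of both it was 0.

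**Figure D3:**
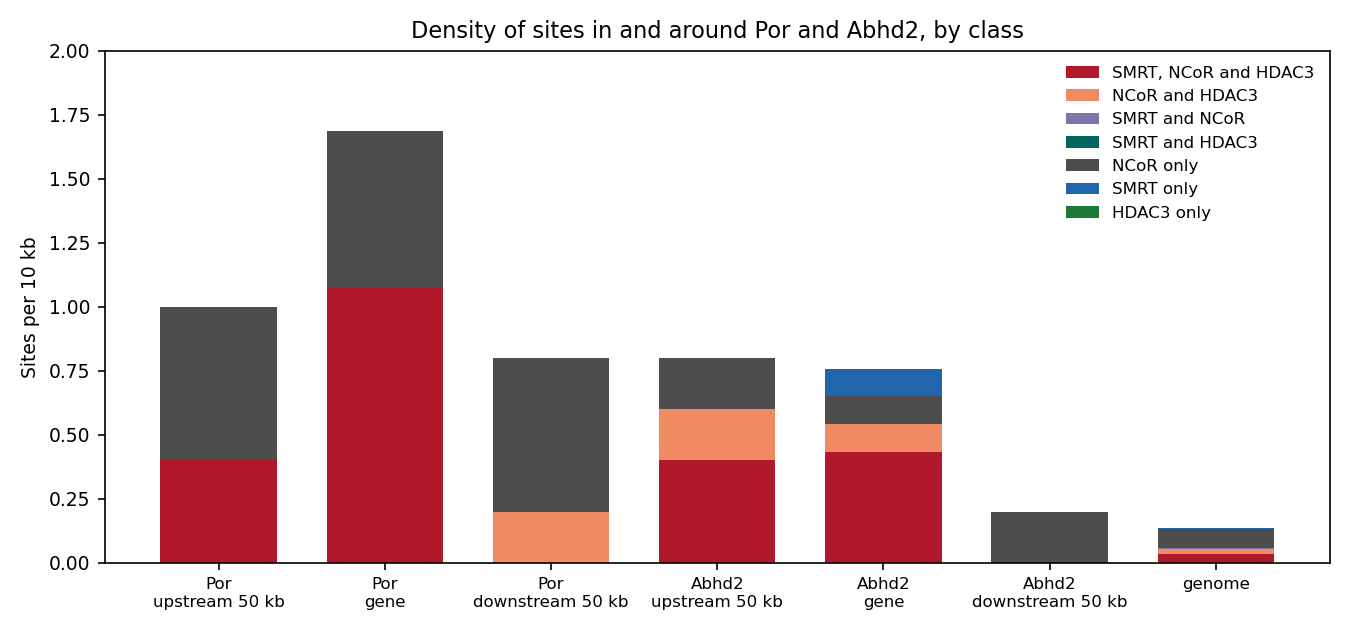
Sites per 10 kb in the 50 kb upstream, the gene and the 50 kb downstream of Por and of Abhd2, and in the genome, stacked by the cofactors present. The Por gene has the tallest bar (1.68 per 10 kb, 1.07 of it shared) and neither downstream flank holds a shared site. Both genes were picked on their shared sites.

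Most sites had a neighbour close by. The median distance from a site to its nearest neighbour was 3825 bp at Por, 2395 bp at Abhd2 and 6304 bp over all sites. A neighbour lay within 10 kb for 18 of 20, 8 of 12 and 63% of sites. Windows picked for many shared sites favour close neighbours, so nothing is read from these differences. Gaps between successive Por sites ran from 567 bp (sites 6 and 7) to 21006 bp (sites 19 and 20), with a median of 5496 bp. At Abhd2 they ran from 561 to 32791 bp with a median of 14571 bp. Shared sites spanned 83.7 kb at Por and 57.1 kb at Abhd2.

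Where cofactors met, their peak centres lay close together, and no site held more than 1 peak of a cofactor. At the 9 Por sites with SMRT and NCoR, the centres were a median of 24 bp apart (range 9 to 93), the same as the genome median of 24 bp (quartiles 11 and 42, 10201 sites). HDAC3 and NCoR centres at 10 Por sites were a median of 15.5 bp apart (range 1 to 100), beside a genome median of 23 bp. SMRT and HDAC3 were 23 bp apart at 9 Por sites and 25 bp in the genome.

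At Abhd2 the SMRT and NCoR centres were closer, with a median distance of 2.5 bp over 6 sites (range 1 to 25). Sites 3, 4, 8 and 9 had SMRT offsets of -2, -1, 1 and 3 bp from NCoR, whereas sites 5 and 10 had 25 and 20 bp. HDAC3 and NCoR were a median of 14.5 bp apart over 8 sites (range 4 to 75), with the farthest pair at NCoR and HDAC3 site 1. These distances are below the interval length of 212 or 228 bp, and the precision of a centre could not be taken from lists without replicate positions.

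**Figure D4:**
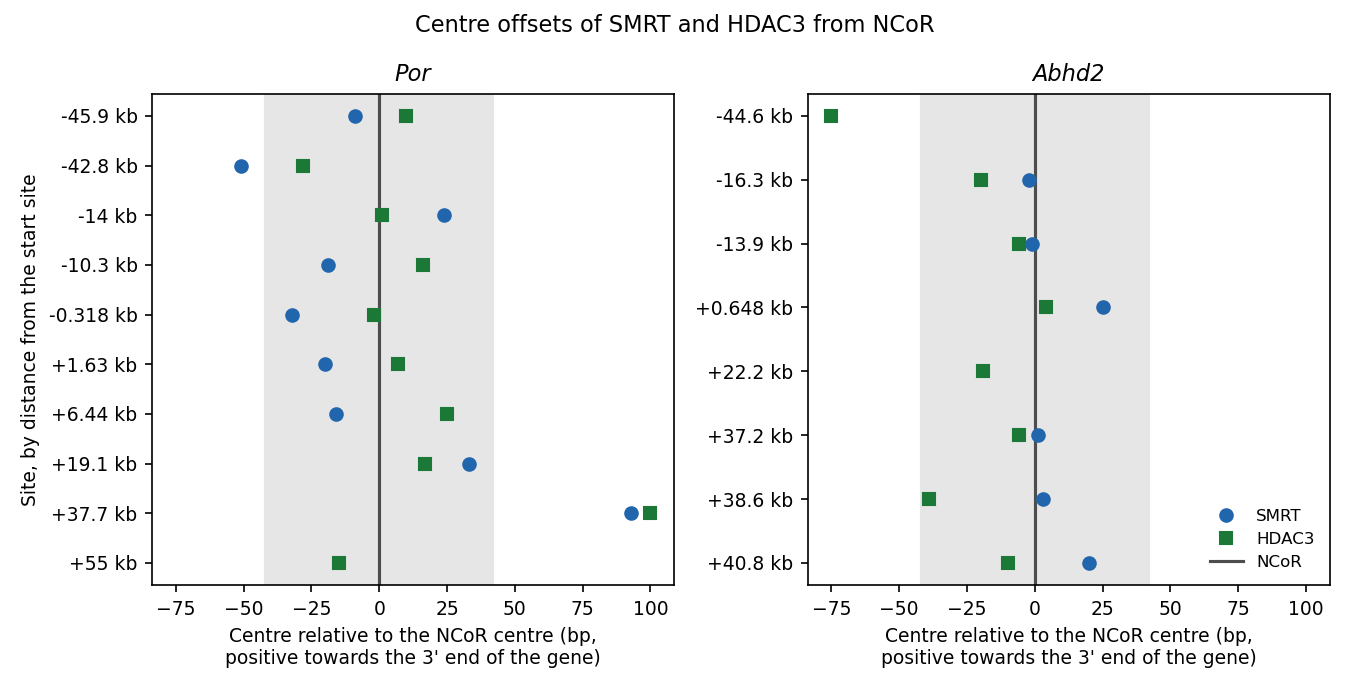
Position of the SMRT centre (circles) and the HDAC3 centre (squares) relative to the NCoR centre in bp, positive towards the 3′ end of the gene, at each site with NCoR and HDAC3, ordered by distance from the start site. The grey band spans 42 bp to either side, the upper quartile over all sites, and site 16 of Por (93 and 100 bp) is the farthest outside it.

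Site 16 of Por had the widest span among the shared sites of the 2 genes. Its SMRT and HDAC3 centres lay 7 bp from each other but 93 and 100 bp downstream of the NCoR centre. Its 3 centres spanned 100 bp, at the 94.6th percentile of all shared sites, whose median span was 38 bp. The other 8 Por sites spanned 19 to 51 bp. Sites 4 and 8 of Abhd2 had the tightest spans, 6 and 7 bp, at percentiles 2.21 and 2.98.

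The order of the centres along the strand differed between the genes. SMRT lay downstream of HDAC3 at 2 of 9 Por sites and at 6 of 6 Abhd2 sites, while over the genome SMRT was at the higher coordinate at 48.4% of sites. HDAC3 lay downstream of NCoR at 7 of 10 Por sites but at 1 of 8 Abhd2 sites (genome 48.7% at the higher coordinate). SMRT lay downstream of NCoR at 3 of 9 Por sites and 4 of 6 Abhd2 sites (genome 48.2%). Differences in order were not tested.

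Exact matches to 8 motifs of liver transcription factors were searched on both strands of the 200 bp windows. At least 1 of the 8 was present at 3 of 20 Por sites, 5 of 12 Abhd2 sites and 30.4% of all sites. The motifs were BCL6/STAT, DR1, ERR (TCAAGGTCA or TGAAGGTCA), the HNF4 half-site (CAAAGGCCA, CAAAGGTCA, CAAAGTCCA or CAAAGTTCA), FOX (TGTTTAC), HNF6/CUX2 (TATCGATC, TATCGATT, TATTGATC or TATTGATT), ETS/ELK (CCGGAAGT) and C/EBP (TTACGCAA, TTATGCAA, TTGCGCAA or TTGTGCAA). The HNF4 half-site forms part of DR1, so those matches can overlap.

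BCL6/STAT matches stood at 5 Abhd2 sites and 2 Por sites, against 3.83% of all sites and 4.4% of shared sites. At Abhd2 they lay in sites 1 and 7 (NCoR and HDAC3), site 6 (SMRT-only) and shared sites 8 and 10. Site 8 held TTCCTAGAA at chr7:79310484-79310492 and TTCTAAGAA at chr7:79310503-79310511, and site 10 held TTCCCAGAA at chr7:79314067-79314075. At Por the matches were TTCTGGGAA at chr5:135678784-135678792 in shared site 8, and TTCCTGGAA and TTCTAAGAA in NCoR-only site 5. They lay off centre: in the central 100 bp, 1 Abhd2 site and no Por site held a match, compared with 1.87% of all sites. With 1 mismatch allowed, 7 of 20 Por sites and 5 of 12 Abhd2 sites held a match, beside 32.5% of all sites. By count Por was then ahead, but by share of sites Abhd2 stayed ahead.

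The HNF4 half-site was found at NCoR-only site 20 of Por, inside Mdh2, and at NCoR and HDAC3 site 7 of Abhd2, and in 7.75% of all sites. In the 200 bp windows, none of the 32 sites held an exact match to DR1, ERR, FOX, HNF6/CUX2, ETS/ELK or C/EBP. These were found in 1.53%, 2.17%, 7.74%, 5.79%, 0.756% and 5.53% of all sites. In 400 bp windows, C/EBP was found at 2 Por sites (7.05% of all sites) and HNF6/CUX2 at 1 Abhd2 site (7.29%). With 1 mismatch allowed in the 200 bp windows, DR1 was found at 6 Por sites (3 shared), at 3 Abhd2 sites (2 shared) and in 13.6% of all sites. The same setting gave FOX at 7 and 5 sites of Por and Abhd2 (53.9% of all sites), C/EBP at 3 and 3 (37.8%) and HNF6/CUX2 at 5 and 3 (32.6%). It gave ERR at 4 and 2 (21.8%), ETS/ELK at 1 and 1 (11.2%) and the HNF4 half-site at 12 and 7 (46.3%). A DR1 match with 1 mismatch lay at the NCoR centre of Por site 16, shown in capitals above.

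Base composition was described for the same windows. The median GC content was 52% at Por and 49% at Abhd2, beside 48% over all sites. The lowest at Por was 35.5% in NCoR-only site 5, and promoter site 10 had 62.5%. No site at either gene was more than 50% repeat-masked, as were 3.78% of all sites. Among sites with an exact BCL6/STAT match, Abhd2 sites 1, 6, 7, 8 and 10 were 0%, 0%, 38.5%, 13% and 25.5% repeat-masked. Por sites 5 and 8 were 35.5% and 6% repeat-masked. Whether the matches lay in the masked bases was not examined.

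The study also designed ChIP-qPCR amplicons at both genes, which were placed here by matching their primers to GRCm38. The Por pair, tggagctattggtagctttgg and caacagagaatcgatgagggtag, spans chr5:135690633-135690697, and the middle of its 65 bp coincides with the centre of shared site 11. The Abhd2 pair, tctttgtgccttgtggagtt and ctgcagcaaagcaggatttc, spans chr7:79310457-79310532. Its middle lies 80 bp from the centre of shared site 8, and its 76 bp include both BCL6/STAT matches of that site. The Por amplicon thus covers a site with no exact match to any of the 8 motifs in its 200 bp window. The study describes the regions it measured by ChIP-qPCR as binding sites that BCL6 and PPARα share.

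Set beside all protein-coding genes, Por stood in the upper tail of shared-site counts, on which it was picked. Its 9 were matched or exceeded at 32 genes (0.146%, Por included), and the 6 of Abhd2 at 258 genes (1.18%), with a median of 0. For all sites the 20 of Por were reached by 0.415% of genes and the 12 of Abhd2 by 4.1%, with a median of 2. Within the gene alone, the counts of 7 and 4 were reached by 0.173% and 1.08% of genes. By nearest start site, the 6 shared sites of either gene were reached by 150 genes (0.683%) and the 10 sites of either gene by 2.81%. Longer genes have longer windows, and these shares were not adjusted for length.

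**Figure D5:**
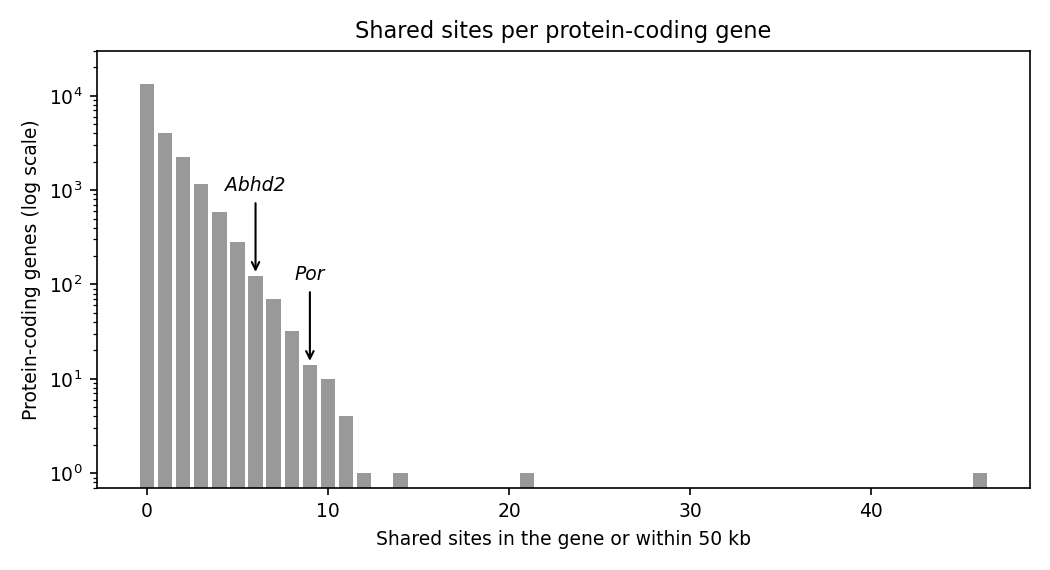
Number of protein-coding genes (log scale) by shared sites in the gene or within 50 kb. Most genes (13344 of 21951) hold none, 123 genes hold 6, as Abhd2 does, and 14 hold 9, as Por does.

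How the sites are assigned to genes changes the order among the 29 study genes. Within 50 kb, Por and Ppara, the gene of the fatty acid receptor, held 9 shared sites each. Acot1, an acyl-CoA thioesterase gene, held 7, and Abhd2 held 6, as did Acot2, Acot4 and Hadh. Windows of close genes can take in the same sites, and a site then counts for each gene. Acot1, Acot2 and Acot4 all lie on chromosome 12. When each site went to the nearest protein-coding start site, Ppara held 9, Por and Abhd2 held 6 each, and Bcl6 was next with 5. Acot1, Acot4 and Acot2 then held 4, 1 and 0. Ppara thus matched or exceeded both genes by either count. Inside the gene alone Por had 7 shared sites, and the highest count at any other study gene was 4. Of those 27 genes, 24 had a shared site within 50 kb, with a median of 4, beside 39.2% of all protein-coding genes. The study took these genes up for their responses to fasting or to loss of Bcl6, or as bound regions, so this list gives no independent evidence.

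Counts were also taken for functional relatives of both genes. Over all protein-coding genes, 39.2% had a shared site within 50 kb and the median was 0. Of 17 genes of electron-transfer partners, flavoprotein relatives and regulators of POR, 11 had a shared site within 50 kb and the median was 1. Cyb5a, the microsomal cytochrome b5 that also gives electrons to P450 enzymes, had the most with 7. The receptors that induce P450 genes, Nr1i3 (CAR) and Nr1i2 (PXR), had 5 and 3, and Hmox1, Nos1 and Nos2, whose enzymes take electrons from NADPH, had 2 each. Of the 19 other members of the alpha/beta hydrolase domain family, 12 had a shared site and the median was 1. Abhd11 had 6 and Abhd5, the activator of adipose triglyceride lipase, had 4. Abhd14a, Abhd14b and Abhd17c had 3 each. Within the gene, 3 of the 17 and 5 of the 19 had a shared site, beside 13.1% of all protein-coding genes. By nearest start site, Cyb5a, Nr1i2, Hmox1, Nr1i3, Nos1 and Nos2 held 3, 3, 2, 1, 0 and 0 shared sites. In that count Abhd17c, Abhd11, Abhd5, Abhd14b and Abhd14a held 3, 2, 2, 1 and 0.

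The genes closest to Por in counts of the 7 site classes were Nfib and Rbpms (Euclidean distance 1.41), Shb (1.73), and Fkbp5 and Nedd4l (2.24). Closest to Abhd2 were Cebpb, Coq8a, Eepd1 and Gjc3 (distance 1) and Aacs (1.41). Likeness here was measured over counts within 50 kb only.

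Neighbouring genes shared some of these sites. Around Por, the windows of Rhbdd2, Tmem120a and Styxl1 took in 7, 5 and 2 shared sites, and that of Mdh2 took in 0. By nearest start site, 10 of the 20 sites belonged to Por (6 shared), 4 each to Rhbdd2 (2 shared) and Tmem120a (1 shared), and 1 each to Styxl1 and Mdh2. The shared site that went to Tmem120a was site 16, in intron 2 of Por. At Abhd2, 10 of the 12 sites, among them all 6 shared ones, had its start site as the nearest, and the other 2 went to Rlbp1. Fanci, the other coding gene of the window, held no site. Which gene a site acts on was not measured.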

How the data were processed

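Per the labels and the study's methods, the authors aligned ChIP-seq reads to mm10 with Bowtie, kept unique reads, and called peaks with HOMER on the 3 replicates of a cofactor pooled, against input. DESeq2, run by the authors on single libraries, then set which peaks were kept. The deposited lists give a chromosome, start and end only, with fixed interval lengths of 212, 228 and 212 bp for SMRT, NCoR and HDAC3. Sequencing depth is unknown for every list (not given in the sources used here), and a missing peak can reflect too few reads as well as no binding. Positions are printed as listed.

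Here, peaks of the 3 lists were joined by single linkage at 200 bp with Python 3.11.15 and numpy 2.4.6 and placed on the GENCODE annotation of GRCm38, whose basic set gave start sites. Sequence came from the RefSeq copy of GRCm38. The merging and motif search were tested on simulated data. Both genes and all gene lists were chosen with earlier results of these data known. Named genes were Por, Abhd2, their coding neighbours, the study genes next in order, the 5 genes per functional list with the most shared sites (in symbol order where level, with Nos2, which was level, added after its value was seen), and the 5 genes per member with the most similar counts. Some genes that this rule covers are not reported here. No test was made. Alternatives varied the joining distance, window, promoter, motif window and mismatches. Of 21 listed alpha/beta hydrolase domain genes, 20 matched the annotation.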

Additional observations from a re-analysis of the deposited data

How the results depend on the processing

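Of 64 alternative values for the main counts and distances, 51 stayed within 1.5 times the reported value, 13 moved further and none reversed. Shared sites, within that range, fell from 9 at Por to 8 with 25 kb on either side, 7 with the gene alone and 6 by nearest start site, and from 6 at Abhd2 to 4 with the gene alone. NCoR-only sites at Por fell from 10 to 7 with 25 kb on either side. Most that moved further followed the window. With the gene alone, NCoR-only sites went from 10 to 4 at Por and from 3 to 1 at Abhd2, NCoR and HDAC3 sites from 1 to 0 and from 2 to 1, and genes near Por with a shared site from 3 to 1. By nearest start site, NCoR-only sites were 4 at Por and 1 at Abhd2, and NCoR and HDAC3 sites at Por were 0. With 25 kb on either side, NCoR and HDAC3 sites at Abhd2 were 1. Counting from Por-201 alone, a choice made after seeing the data, left 4 shared and 2 NCoR-only sites. A promoter from 2500 bp before to 500 bp after a start site held 2 sites of the Por window in place of 1. The added one was site 18, 432 bp from the start of Tmem120a and not at a start of Por. The median gap at Por was 9982 bp, in place of 5496 bp, over sites with NCoR and another cofactor. Joining distances of 100 and 400 bp moved none of these counts or median offsets. For single motifs, 21 of 48 values moved, most of them when 1 mismatch was allowed.

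A stricter peak threshold was not run, since no peak has a score. No paired analysis was possible because the peak list of a cofactor was called on its 3 replicates together and has no column per replicate, and no replicate was left out for the same reason. Unknown depth limits every statement about a peak that is not listed.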
